A study of Mus musculus with 8 samples.

Results

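Gene levels were compared between nontreated NIH3T3 cells (NT) and NIH3T3 cells 4 h into recovery from arsenite (RC4). Every gene in the deposited table for RC4 was taken, which gave 10081 genes of the 10690 genes that are in at least 1 of the 3 tables of the series. NIH3T3 cells are mouse fibroblasts kept as an established line, and those of all 4 conditions were labelled as proliferating, in DMEM with calf serum and antibiotics. NT cells received no arsenite. AS cells had a 1-h exposure to 250 µM sodium arsenite. RC4 and RC8 cells had the same exposure and were then kept for 4 h or 8 h in medium without arsenite. Total RNA of each condition gave 1 QuantSeq FWD library, in which reads lie close to the 3′ end of a polyadenylated transcript, so a read count follows the number of transcripts rather than their length. The question was which transcripts were more or less abundant at 4 h of recovery, and how that related to the choice of the cleavage and polyadenylation site (PAS). With a single cell line and 1 library per condition there is no spread between cultures to compare with, so no test was made and every difference below is between 2 libraries.

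Arsenite binds protein thiols and depletes glutathione, and cells answer it with several transcription programs. Heat shock factor HSF1 drives chaperone genes when proteins misfold, NRF2 drives genes of thiol, heme and iron metabolism, MTF1 drives metallothioneins, and ATF4 drives genes of amino acid supply when phosphorylation of eIF2α slows translation. Stressed cells also slow their division. Most mammalian genes also have more than one PAS. A proximal PAS in the last exon gives a shorter 3′UTR, and a PAS in an intron gives a transcript that lacks the downstream exons.

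The NT library held 22.5 M reads on the genes of the table and the RC4 library 22.9 M. The median gene had 783 reads in NT and 619 in RC4. The level change of a gene is given as the log2 of RC4 reads over NT reads, set so that the median gene of the table is 0. Scaled to the total reads of each library instead (RPM), the median gene lies at −0.30. Brackets hold 95% counting intervals (Clopper-Pearson for ratios), which cover counting error only, since PCR copies cannot be told from separate molecules here. A change in transcripts per cell and a change in the make-up of the culture cannot be told apart in such libraries. The table lists 13 of 13 fibroblast markers, whose summed level was 18157 RPM in NT and 14881 in RC4. It lists 0 of 6 epithelial, 0 of 5 blood and 0 of 4 endothelial markers, Epcam, Ptprc and Pecam1 among them.

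A gene was called higher or lower when its level differed at least 2-fold. By this rule 643 genes were higher in RC4, 6.38% of the table, and 643 were lower, also 6.38%. In RPM, the split was 372 higher (3.69%) and 1347 lower (13.4%), so the balance between both directions depends on the scaling, and higher genes made up 50% of calls on the first scale and 21.6% on the second. The largest changes lay on the higher side. At least 4-fold, 99 genes were higher and 46 lower, and at least 8-fold, 22 were higher and 4 lower. In between, 6162 genes (61.1%) lay within 1.41-fold of the median gene. The counting interval lay wholly past 2-fold for 476 of the higher and 370 of the lower genes. Higher genes held 5.75% of NT reads and 15.4% of RC4 reads, and lower genes 4.31% and 1.22%.

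**Figure D1:**
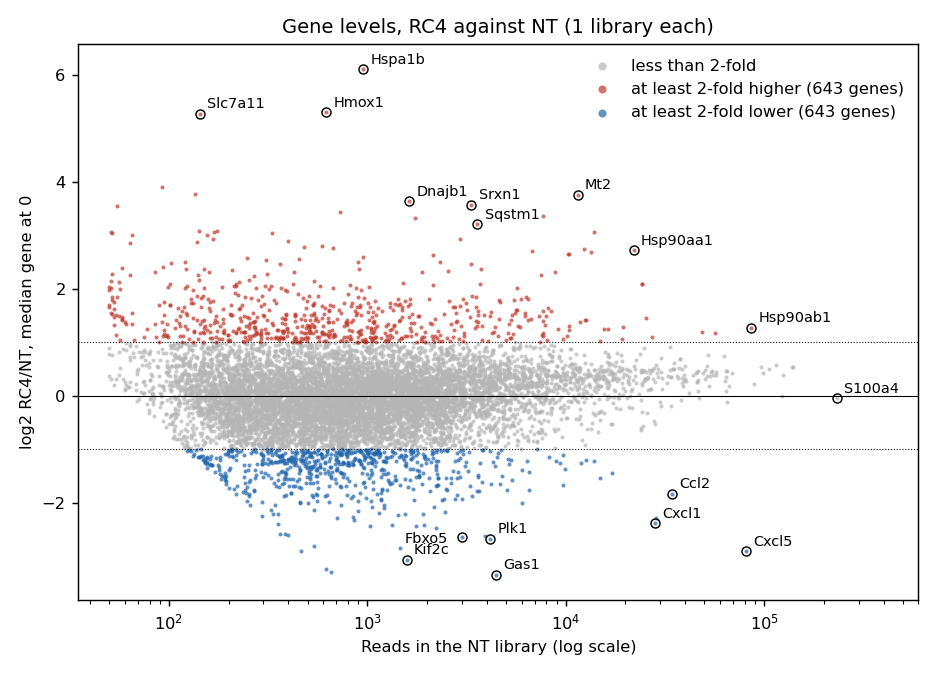
Each point is a gene, with its reads in the NT library on a log axis and the log2 of RC4 over NT on the vertical axis (median gene at 0, dotted lines at 2-fold). Hspa1b, Hmox1 and Slc7a11 stand above 5, while Gas1, Kif2c and Cxcl5 are among the lowest. The slanted lower left edge is set by the minimum of 50 reads per library in the table.

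Heat shock chaperones were higher. Of 23 genes named as HSF1 targets, 21 were in the table, of which 16 were higher and 0 lower, and the median log2 was 1.68 against 0 for all genes. Hspa1b, an inducible HSP70 chaperone on chromosome 17 (chr17:35093381-35096183, minus strand, mm9), had 955 reads in NT and 54238 in RC4. That is a log2 of 6.11 [6.02, 6.20] or 69.0-fold, the highest in the table. Its cochaperone Dnajb1, an HSP40 protein, went from 1633 to 16817 reads (log2 3.64), and Hsph1, an HSP110 nucleotide exchange factor, from 13907 to 95975 (log2 3.07). All 3 were at least 8-fold higher in RC4. The small heat shock protein gene Cryab had 6748 and 36433 reads (log2 2.71), and the HSP70 cochaperone gene Bag3 had 3704 and 12907 (log2 2.08).

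Chaperone genes with many reads in NT were higher as well. Hsp90aa1, the inducible HSP90, had 22072 reads in NT and 119649 in RC4 (log2 2.72), and its constitutive paralog Hsp90ab1 had 86177 and 171529 (log2 1.27). Hspa8, the constitutive HSP70, had 24379 and 85794 reads (log2 2.1). In the mitochondrial chaperonin pair, Hspd1 (HSP60) had a log2 of 1.46 and Hspe1 (HSP10) of 1.64, though the 3′ end of each resembles a pseudogene. The list's lowest values were those of Hspa4 (0.37) and Hspa4l (0.40). Serpinh1, the collagen chaperone, was at 0.88. Summed over the list, chaperone messages went from 11177 to 34443 RPM. Hspa1a, the near-identical neighbour of Hspa1b, is not listed in the table.

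Misfolded proteins are marked with ubiquitin and degraded by the proteasome. Zfand2a, whose arsenite-inducible product binds the proteasome, had 729 reads in NT and 6487 in RC4 (log2 3.43). Of 9 polyubiquitin and p97 cofactor genes 3 were higher, among them the polyubiquitin gene Ubb (16304 and 31855 reads, log2 1.25) and Ubxn4 (1043 and 1817 reads, log2 1.08), but 0 of the 9 were higher in RPM. Only 1 of 35 proteasome subunits was, Psmd13 (log2 1.15), although 32 lay above the median gene and the list's median was 0.40 (0.09 in RPM). By contrast, chaperones of the endoplasmic reticulum were not shifted in common. Of 15 such genes Dnajb9 was higher (1187 and 2919 reads, log2 1.58), Sdf2l1 was lower (514 and 168 reads, log2 −1.33) and the median was −0.19.

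Heat shock elements, inverted repeats of nGAAn, are bound by HSF1. The letters GAANNTTC were searched on both strands in RefSeq promoters of GRCm38.p6, from 250 nt before to 50 nt after the gene start. They were found in 8 of 17 chaperone promoters available (47.1%, 95% Wilson interval 26.2% to 69.0%) in 7.86% of all 32851 promoters, and in 5.31% of those of genes in the table. The 30-nt windows of 3 higher members are shown to give an idea of the match, which is marked by capitals and is not evidence of binding.
Hspa1b (chr17:34959324-34959353, minus strand): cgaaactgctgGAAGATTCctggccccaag
Hsph1 (chr5:149636287-149636316, minus strand): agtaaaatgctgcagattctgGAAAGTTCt
Bag3 (chr7:128523603-128523632, plus strand): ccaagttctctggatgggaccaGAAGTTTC

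All 3 metal response genes were higher. Mt2, a metallothionein that binds zinc, cadmium and arsenic through cysteines, had 11521 reads in NT and 128362 in RC4, a log2 of 3.76. Mt1 had 7647 and 65075 reads (log2 3.37), and Slc30a1, the plasma membrane zinc exporter, had 819 and 2819 (log2 2.06). Metal response elements have the core TGCNCNC, a short motif that was found in 3 of 3 of these promoters in 51.0% of all promoters and in 60.1% of those of genes in the table, so its presence says little. Windows around 1 match per gene are given, with the motif in capitals in either orientation.
Mt2 (chr8:94172611-94172640, plus strand): gaattcgggtcGTGCGCAggcccaggggcg
Mt1 (chr8:94179080-94179109, plus strand): ccagggagctcTGCACTCcgcccgaaaagt
Slc30a1 (chr1:191906800-191906829, plus strand): gcctccgggccGAGCGCAgtcgccgcggac

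Among the NRF2 targets, 9 of 21 were higher and 0 lower, with a median of 0.77. Hmox1, heme oxygenase 1, had 623 reads in NT and 20333 in RC4 (log2 5.31 [5.19, 5.43], 39.6-fold). Slc7a11, the cystine transporter that feeds glutathione synthesis, had 143 and 4558 reads (log2 5.27). Srxn1, which repairs oxidized peroxiredoxins, had 3349 and 32820 reads (log2 3.57). Sqstm1, the autophagy receptor p62, had 3595 and 27461 (log2 3.21), and Txnrd1, thioredoxin reductase 1, had 3726 and 15856 (log2 2.37). Gclc, the catalytic subunit of glutamate-cysteine ligase, had 897 and 2670 reads (log2 1.85).

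The same list held genes that stayed near the median. Gclm, the modifier subunit of that ligase, had 24946 reads in NT and 24869 in RC4 (log2 0.28), and Nqo1, a quinone reductase, had 2328 and 2370 (log2 0.31). Glutathione reductase Gsr was at −0.05 and thioredoxin Txn1 at 0.13. In the ferritin pair, the heavy chain Fth1 had 56850 and 105895 reads (log2 1.18) and the light chain Ftl1 12715 and 27774 (log2 1.41), the latter with several near-identical copies elsewhere. The antioxidant response element TGACNNNGC was found in 6 of 17 NRF2 target promoters (35.3%, 17.3% to 58.7%), in 12.4% of all promoters and in 15.3% of those of genes in the table. It was not particular to this list, being found in 7 of 22 ATF4 target promoters (31.8%) and 2 of 17 chaperone promoters (11.8%). Windows of a higher gene and of a gene near the median show that a match was present in both.
Srxn1 (chr2:152105542-152105571, plus strand): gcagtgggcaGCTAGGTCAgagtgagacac
Gclm (chr3:122245413-122245442, plus strand): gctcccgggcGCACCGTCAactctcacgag

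Of 24 ATF4 targets in the table, 14 were higher and 1 lower, and the median was 1.28. Trib3, a pseudokinase, had 308 reads in NT and 1477 in RC4 (log2 2.54). Ppp1r15a, which directs dephosphorylation of eIF2α, had 268 and 1048 reads (log2 2.25), and Ddit3, the factor CHOP, had 918 and 2391 (log2 1.66). Genes of amino acid supply were higher too. Asns, asparagine synthetase, had 1069 and 2623 reads (log2 1.58), Slc3a2, the shared heavy chain of amino acid exchangers, had 2828 and 6114 (log2 1.39), and Slc7a1, a cationic amino acid transporter, had 1652 and 3270 (log2 1.27). Atf4 itself had 9676 and 9923 reads (log2 0.32). The lower member was Cebpb (5075 and 1225 reads, log2 −1.77), a leucine zipper factor.

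Enzymes that charge tRNA split by compartment. Of 20 cytosolic aminoacyl-tRNA synthetase genes, 7 were higher and 0 lower, with a median of 0.59. Sars (1642 and 4460 reads, log2 1.72), Aars (1455 and 3937 reads, log2 1.72) and Rars (5682 and 14280 reads, log2 1.61) were highest, while Farsa was at −0.67. Of 11 mitochondrial synthetase genes, 0 were higher and 2 lower, with a median of −0.64. The lower ones were Iars2 (1084 and 388 reads, log2 −1.20) and Hars2 (495 and 199 reads, log2 −1.03). ATF4 binds C/EBP-ATF response elements. The core TGATGNAA was found in 7 of 22 ATF4 target promoters (31.8%, 16.4% to 52.7%) in 3.97% of all promoters and in 1.95% of those of genes in the table, and is shown for 2 higher genes, in both on the reverse strand.
Trib3 (chr2:152344028-152344057, minus strand): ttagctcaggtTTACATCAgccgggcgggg
Chac1 (chr2:119351038-119351067, plus strand): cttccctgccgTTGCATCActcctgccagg

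**Figure D2:**
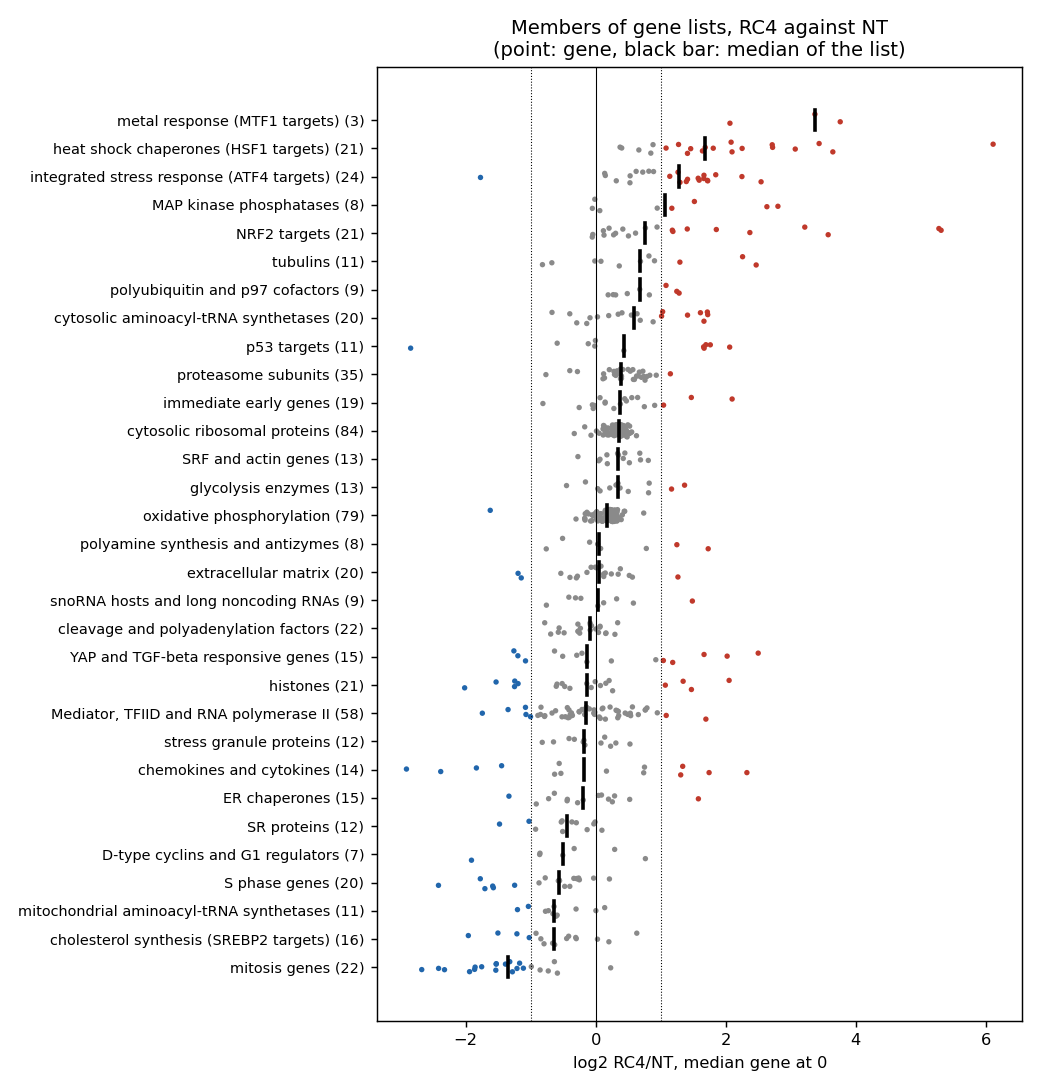
Each point is a gene of the list named on the vertical axis (number in the table in parentheses), with its log2 of RC4 over NT on the horizontal axis, in red or blue where at least 2-fold higher or lower. Black bars are list medians, which run from 3.37 for the metal response genes to −1.35 for mitosis genes.

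Some feedback regulators of growth factor signalling were higher. Of 8 MAP kinase phosphatase genes, 4 were higher and 0 lower. Dusp5, a nuclear ERK phosphatase, had 594 reads in NT and 3408 in RC4 (log2 2.80), and Dusp4 had 2143 and 10933 (log2 2.63). Dusp1 was near the median, at 5512 and 4381 reads (log2 −0.05). Of 19 immediate early genes, 3 were higher at 4 h of recovery, namely Maff (421 and 1483 reads, log2 2.1), Egr1 (3301 and 7529 reads, log2 1.47) and Klf6 (3797 and 6444 reads, log2 1.04). Jun had 3791 and 4330 reads (log2 0.47).

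Of 11 p53 targets, 5 were higher and 1 lower. Gadd45a, a stress sensor, had 213 reads in NT and 731 in RC4 (log2 2.06). Mdm2, the ubiquitin ligase of p53, had 4651 and 12987 (log2 1.76), and Cdkn1a, the cyclin-dependent kinase inhibitor p21, had 2707 and 7040 (log2 1.66). Sesn1, a sestrin that restrains mTORC1, differed in the other direction, with 1456 and 167 reads (log2 −2.84). Bax and Bbc3, which promote apoptosis, were at 0.43 and −0.11.

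Jag1, a Notch ligand, had 142 reads in NT and 984 in RC4 (log2 3.07). Ptgs2, the inducible cyclooxygenase, had 8808 and 36311 reads (log2 2.32). Among genes responsive to YAP or TGF-β, Ctgf, a matricellular protein gene, had 2326 and 10816 reads (log2 2.5), and Skil, a repressor of SMAD signalling, had 1036 and 2706 (log2 1.67). On the other side stood Thbs1, thrombospondin 1 (11915 and 4105 reads, log2 −1.26), and the helix-loop-helix inhibitors Id1 (5310 and 1909 reads, log2 −1.20) and Id2 (4565 and 1780 reads, log2 −1.08). In all, 5 of the 15 YAP and TGF-β genes were higher and 3 lower, with 3 and 3 in RPM.

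Chemokine genes accounted for all lower members of their list. Cxcl5, a neutrophil attractant, had 81327 reads in NT and 8922 in RC4, a log2 of −2.91 [−2.94, −2.88]. Cxcl1 had 28324 and 4476 reads (log2 −2.38), the monocyte attractant Ccl2 had 34305 and 7928 (log2 −1.83), and Ccl7 had 17093 and 5167 (log2 −1.45). All 4 were among the abundant messages of NT cells. The 4 higher members of the list of 14 chemokines and cytokines were the prostaglandin enzyme Ptgs2 and the growth factors Hbegf (1013 and 2792 reads, log2 1.74), Vegfa (1277 and 2657 reads, log2 1.34) and Ereg (2964 and 6038 reads, log2 1.31). Nfkbia, the NF-κB inhibitor and target, had 9130 and 4854 reads (log2 −0.63).

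Other genes among the 15 with the highest ratio have varied roles. Havcr2, the receptor TIM-3, had 92 reads in NT and 1140 in RC4 (log2 3.91), and Procr, the protein C receptor, had 1745 and 14338 (log2 3.32). Acot2, a mitochondrial acyl-CoA thioesterase, had 55 and 533 reads (log2 3.56), but 1 of its count columns was 0, and with that column set to the other the log2 was 2.56. Sirt6, a chromatin deacylase, had 136 and 1533 reads (log2 3.78) at a PAS 1949 nt beyond the annotated gene end, with a 3′ end that resembles other genes. Among solute carriers, 18 of 130 were higher and 3 lower, but in RPM 9 were higher and 14 lower. Slc20a1, a phosphate transporter, had 2950 and 18572 reads (log2 2.93). Slc1a3, a glutamate transporter, had 6540 and 1590 (log2 −1.76). Of 11 tubulin genes, 3 β-tubulins were higher, led by Tubb2a (3332 and 15163 reads, log2 2.47) and Tubb3 (64 and 252 reads, log2 2.26), whereas Tubb5 (46652 and 40631 reads) was at 0.08. The nuclear noncoding RNA Neat1, which scaffolds paraspeckles, had 6231 and 14370 reads (log2 1.49), and Malat1 had 18491 and 15578 (log2 0.03).

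Genes of mitosis were lower. Of 24 genes, 22 were in the table, of which 16 were lower and 0 higher, with a median of −1.35. Plk1, a kinase of mitotic entry and exit, had 4160 reads in NT and 537 in RC4, a log2 of −2.67 [−2.81, −2.54]. Bub1b, a spindle checkpoint kinase, had 1340 and 207 reads (log2 −2.41), and Kif23, a kinesin of the midbody, had 857 and 141 (log2 −2.32). Cdk1, the mitotic kinase, had 14884 and 4230 reads (log2 −1.53), and its partners Ccna2 and Ccnb1 had 3007 and 646 (log2 −1.94) and 2843 and 648 (log2 −1.85). Tpx2, a spindle assembly factor, was the only list member above the median gene (2587 and 2499 reads, log2 0.23). Outside the list, the microtubule-depolymerizing kinesin Kif2c had 1579 and 155 reads (log2 −3.07), and Fbxo5, an inhibitor of the anaphase-promoting complex, had 3018 and 397 (log2 −2.65).

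Genes of S phase were lower to a smaller extent, 6 of 20 with a median of −0.56. Ccne1, cyclin E1, had 1925 reads in NT and 297 in RC4 (log2 −2.42), and the licensing factor Cdc6 had 1275 and 353 (log2 −1.57). Uhrf1, which maintains DNA methylation, had 2532 and 610 reads (log2 −1.77). Members of the MCM helicase were nearer to the median gene, from Mcm3 at −0.56 to Mcm4 at 0.21. Among 7 G1 regulators the only call was Cdkn2c, the inhibitor p18 (985 and 216 reads, log2 −1.91). Cyclin D1, Ccnd1, had 13688 and 8962 reads (log2 −0.33) and cyclin D2, Ccnd2, had 8317 and 11629 (log2 0.76). Histone genes, a separate list, went both ways. Of 21 in the table, 4 were higher and 5 lower, with a median of −0.14, beside 6.38% of all genes in each direction. Their values ran from −2.01 for the linker histone gene H1f0 (6003 and 1224 reads) to 2.05.

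Promoters of mitotic genes carry cell cycle homology regions (CHR). The letters TTTGAA were found on either strand in 14 of 19 available promoters of mitosis genes (73.7%, 51.2% to 88.2%) in 17.9% of all promoters and in 11.5% of those of genes in the table. The letters CCAAT were found in 17 of the 19 (89.5%), in 37.4% of all and in 39.4% of those of the table. The E2F site TTTCCCGC was found in 3 of 16 promoters of S phase genes (18.8%, 6.59% to 43.0%) in 1.07% of all and in 2.37% of those of the table. Windows of 4 lower mitotic genes, with the CHR letters in capitals, show how close the match lies to the gene start in Plk1, Cdc20 and Kif23, where it begins within 30 nt of it, while in Kif2c it begins at −103 and is on the reverse strand.
Plk1 (chr7:122159453-122159482, plus strand): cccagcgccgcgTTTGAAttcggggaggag
Cdc20 (chr4:118437344-118437373, minus strand): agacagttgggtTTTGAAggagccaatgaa
Kif23 (chr9:61946780-61946809, minus strand): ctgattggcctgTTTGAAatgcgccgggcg
Kif2c (chr4:117178858-117178887, minus strand): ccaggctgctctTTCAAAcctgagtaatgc

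The lowest ratio of all was that of Gas1, a membrane protein gene linked to growth arrest and Hedgehog signalling (chromosome 13). It had 4436 reads in NT and 358 in RC4, a log2 of −3.35 [−3.51, −3.19] or 10.2-fold lower. Nrn1, neuritin, had 3919 and 522 reads (log2 −2.63), and Dio2, the deiodinase that activates thyroid hormone, had 2233 and 331 (log2 −2.47). The receptor gene Pdgfrb, which marks fibroblasts, had 3390 and 758 reads (log2 −1.88). Among matrix genes, Fbn1, fibrillin 1 (397 and 143 reads, log2 −1.19), and Col3a1 (1935 and 721 reads, log2 −1.14) were lower and Timp1, a metalloproteinase inhibitor, was higher (3490 and 6902 reads, log2 1.26). Fibronectin, Fn1, had 15436 and 16152 reads (log2 0.35).

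Of 16 genes of cholesterol metabolism, 4 were lower and 0 higher, with a median of −0.65. Mvd, mevalonate decarboxylase, had 2386 reads in NT and 506 in RC4 (log2 −1.96), and Mvk, mevalonate kinase, had 3049 and 1237 (log2 −1.02). Cyp51, a demethylase of the same pathway, lay above the median gene (17929 and 22873 reads, log2 0.63). Splicing regulators of the SR family had a median of −0.44, with Srsf5 (3636 and 1075 reads, log2 −1.48) and Srsf4 (1554 and 629 reads, log2 −1.02) lower among 12. Of 58 subunits of Mediator, TFIID and RNA polymerase II, 5 were lower and 2 higher, also near the share of all genes, and in RPM 10 were lower and 1 higher. The largest differences were those of Taf2 (1182 and 291 reads, log2 −1.74) and Taf7 (101 and 269 reads, log2 1.69).

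Other families had few calls, beside 6.38% of all genes in each direction. None of 84 cytosolic ribosomal protein genes was called, and 81 lay above the median gene, with a median of 0.36 that became 0.06 in RPM. Of 79 genes of oxidative phosphorylation the only call was Sdhd, a membrane anchor of complex II (1292 and 346 reads, log2 −1.62). None of 22 cleavage and polyadenylation factors was called, from Wdr33 at −0.78 to Cstf3 at 0.34. None of 12 stress granule proteins was either, with the lowest value for G3bp1 (12105 and 5641 reads, log2 −0.82). Zinc finger genes named Zfp were called in 9 of 195 cases higher and 10 lower, close to the share over all genes, and in RPM in 2 and 18 cases.

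The largest gains in share of all reads were those of metallothionein and chaperone genes. Mt2 went from 0.0511% to 0.561% of reads, Hsp90aa1 from 0.098% to 0.523%, Hsp90ab1 from 0.382% to 0.749% and Hsph1 from 0.0617% to 0.419%. Among the other genes of the 8 with the largest gain, 2 share sequence or position with a chaperone gene. The snoRNA Snord14e (0.108% to 0.373%) was counted at a PAS 365 nt past its annotated end, next to that of Hspa8, and Ssh2 (0.0599% to 0.312%) at an intronic PAS whose upstream 200 nt are identical to Hsp90aa1. The largest losses were those of Cxcl5 (0.361% to 0.039%), S100a4 (1.03% to 0.809%) and Ccl2 (0.152% to 0.0346%). S100a4, a calcium-binding protein, was at a log2 of only −0.04 on the scale of the median gene.

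The table has limits at low reads. The lowest read number in a library was 50, so a transcript lost below that is missing rather than low. A further 372 genes were listed in the tables for AS and RC8 but not in that for RC4, with a median of 140 NT reads, and 77 of them had at least 200. Mitotic kinase Aurkb (797 reads in NT, 849 in AS, 481 in RC8), separase Espl1 (590, 612 and 647) and kinase Melk (579, 595 and 334) were among the 8 with most NT reads, as were Aspm and Bora, also of the mitotic spindle. For comparison, 97 genes were missing in the table for AS alone and 65 in that for RC8 alone. The gene with most NT reads, Gm6969 (9969), is missing too, so absence from the table is no measure of a low level. In 129 listed genes 1 of the 2 count columns of a library was 0 while the other was at least 50, in 33 of the higher and 59 of the lower genes. This touched Atoh8, Cdca5, Gypc, Gpr180, March9, Pomt2 and Klf16, 7 of the 15 lowest ratios. With the column at 0 set to the other, their log2 was −2.29 for Atoh8, −2.23 for Cdca5 and between −1.91 and −1.58 for the rest. With Gypc, Cdca5 and the others left out, the 15 lowest ratios also included Medag (1030 and 156 reads, log2 −2.44), Ckap2l, a spindle protein gene (1755 and 266 reads, log2 −2.44), and Cemip, of hyaluronan turnover (704 and 118 reads, log2 −2.30).

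The AS and RC8 libraries show when the same genes differed from NT. These comparisons share the NT library with that of RC4, so their values are set side by side only. In AS, 0.718% of genes were at least 2-fold higher and 2.93% lower, and in RC8 2.95% and 3.59%. Hspa1b had 4890 reads in AS and 2079 in RC8, at log2 values of 2.41, 6.11 and 1.09 in AS, RC4 and RC8. Dnajb1 had 1.76, 3.64 and 0.51. Hmox1 had 1.11, 5.31 and 1.87, and Slc7a11, which was at −0.08 in AS, was at 2.97 in RC8. For the chaperone list the medians were 0.13, 1.68 and 0.37, and 2, 16 and 4 genes were higher. The list of NRF2 targets had medians of 0.12, 0.77 and 0.56, with 1, 9 and 9 genes higher.

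Immediate early genes had another order. Their medians were 0.71, 0.38 and −0.29, and 7, 3 and 0 genes were higher. Egr1 had values of 2.65, 1.47 and −0.30, and Jun of 1.66, 0.47 and −0.16. Ppp1r15a and Ddit3 were as high in AS (2.27 and 1.70) as in RC4 (2.25 and 1.66), unlike Trib3, at 0.49 in AS and 2.54 in RC4. The polyubiquitin gene Ubb had 0.39, 1.25 and −1.09, and Ereg −0.29, 1.31 and −1.50. Neat1 was lower in AS (−1.58) and higher in RC4 (1.49).

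Among lower genes, mitosis genes had medians of 0.07, −1.35 and −0.49 in AS, RC4 and RC8, with 0, 16 and 2 genes lower. Plk1 was at 0.15, −2.67 and −0.13, and Fbxo5 at 0.48, −2.65 and −0.16, close to NT again in RC8. The values of Gas1 were −0.89, −3.35 and −2.68, those of Nrn1 −0.80, −2.63 and −2.96, and those of Cxcl5 −0.19, −2.91 and −2.12, so these lay below −2 in RC8 as well. Cholesterol genes had medians of 0.15, −0.65 and −1.05, with 0, 4 and 9 genes lower, as Acat2 (0.09, −0.63 and −1.54) illustrates. ER chaperones had medians of −0.02, −0.19 and −0.76.

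**Figure D3:**
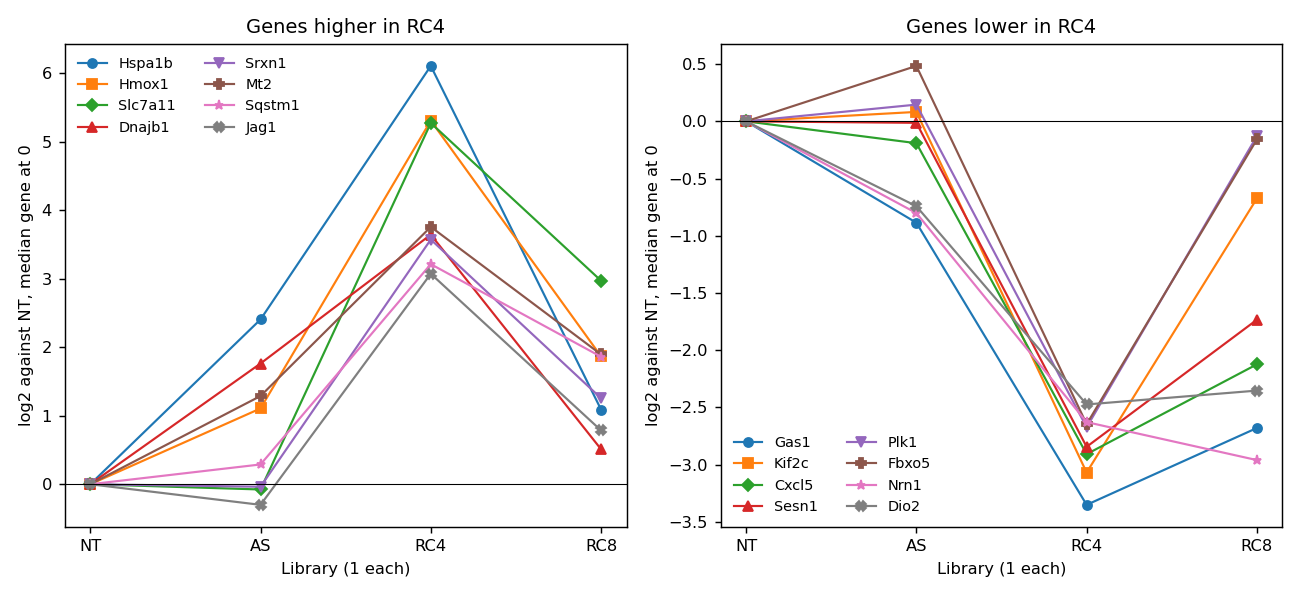
Log2 level against NT (median gene at 0) in the 4 libraries for 8 genes higher in RC4 (left) and 8 lower in RC4 (right), 1 library per point and all relative to the same NT library. Hspa1b goes from 2.41 in AS to 6.11 in RC4 and 1.09 in RC8, whereas Nrn1 is at −2.96 in RC8. Lines join the values of a gene.

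The fractions of reads that were assigned to each PAS allow the level change to be set beside the choice of PAS. Genes with 1 listed PAS were 55.5% of lower genes (51.7% to 59.3%), 45.9% of genes within 1.41-fold (44.7% to 47.2%) and 43.9% of higher genes (40.1% to 47.7%). These classes also differed in depth. The lower of a gene's read numbers in NT and RC4 had a median of 220, 695 and 540. Whether the depth bears on the number of PASs listed was not tested. REDu is the log2 ratio of the distal over the proximal PAS in RC4 minus that in NT, for the pair of 3′-most-exon PASs whose fractions changed most, and a negative value means a relative gain of the proximal PAS. Its median was −0.36 within 1.41-fold (−0.39 to −0.33, 2761 genes), −0.46 in higher genes (−0.63 to −0.34, 314 genes) and −0.31 in lower genes (−0.45 to −0.06, 242 genes). These order-statistic intervals overlap. REDu was below 0 in 71.0% of higher, 68.4% of intermediate and 59.1% of lower genes. With pairs of PASs at least 300 nt apart, the medians were −0.74 in higher and −0.61 in lower genes, and −0.58 in all.

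Across 4461 genes with a REDu, Spearman's rho between REDu and the level change was −0.03 and Pearson's r −0.04. Genes are not independent replicates, and both values come from the same 2 libraries. Of these genes 936 (21%) had a REDu of −1 or less, and their median level change was −0.01. In the 275 genes (6.16%) with a REDu of 1 or more it was −0.15. Of the 936 genes 84 were higher (8.97%) and 49 lower (5.24%), and of the 275 genes 23 were higher (8.36%) and 31 lower (11.3%). In genes with a REDu of −1 or less the proximal isoform had a median log2 of 0.72 and the distal isoform one of −0.72. REDu of a gene is its distal value minus its proximal value, so these opposite signs follow largely from how the genes were picked.

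For REDi, which compares an internal PAS, in an intron or an upstream exon, with one in the 3′-most exon, the order of classes was different. The median was −0.81 in lower genes (−1.25 to −0.25, 69 genes), −0.37 within 1.41-fold (−0.46 to −0.32, 871 genes) and −0.20 in higher genes (−0.47 to 0.38, 67 genes). A gene was scored only where both compared PASs had a fraction above 0 in both libraries. Full gains or losses of a PAS are therefore left out. Of genes with an internal PAS, 69 of 81 lower, 871 of 1067 intermediate and 67 of 103 higher ones had a REDi. Whether this uneven omission bears on the order of classes was not tested. The intervals of lower and higher genes overlap between −0.47 and −0.25. REDi was below 0 in 72.5% of lower, 64.5% of intermediate and 52.2% of higher genes. Across 1341 genes rho with the level change was 0.12 and r was 0.12, in the same sense. A REDi of −1 or less was found in 367 genes (27.4%), of which 14 were higher and 30 lower. In the 112 genes (8.35%) with a REDi of 1 or more, 10 were higher and 3 lower. In lower genes the isoform of the 3′-most exon had a median log2 of −1.45 and the internal one of −0.93.

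**Figure D4:**
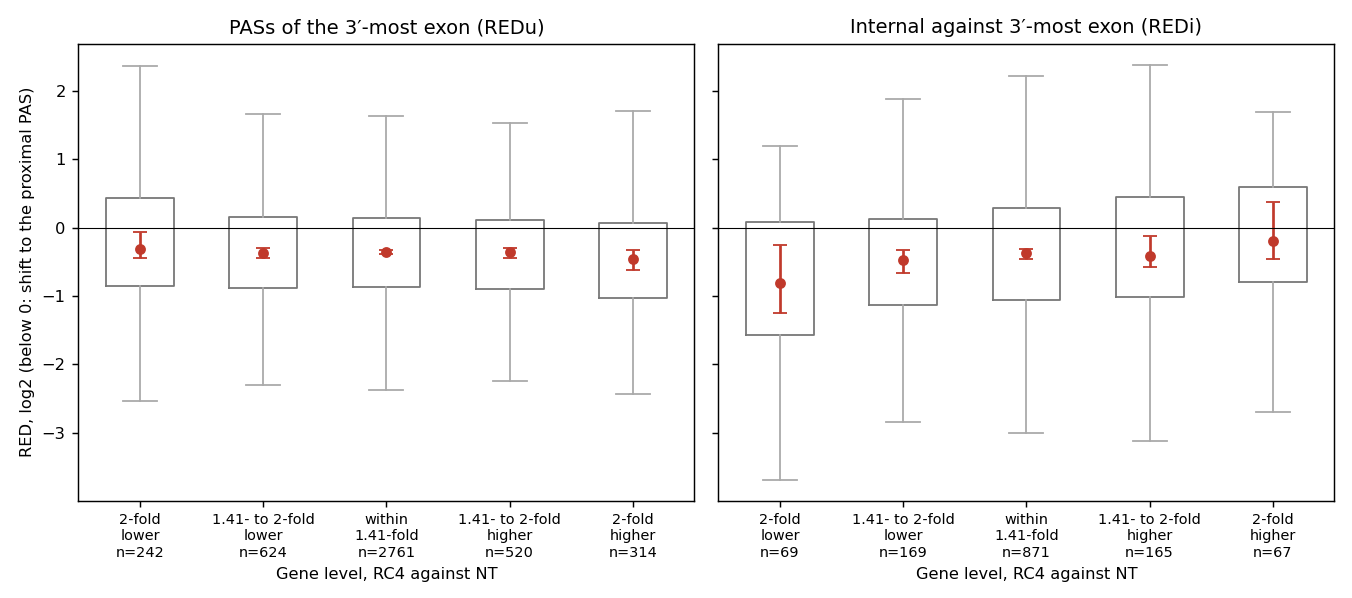
Median REDu (left) and REDi (right) of genes in 5 classes of level change, with 95% order-statistic intervals over genes. All medians are below 0. REDi is −0.81 in genes at least 2-fold lower and −0.20 in genes at least 2-fold higher, with wide intervals at both ends.

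**Figure D5:**
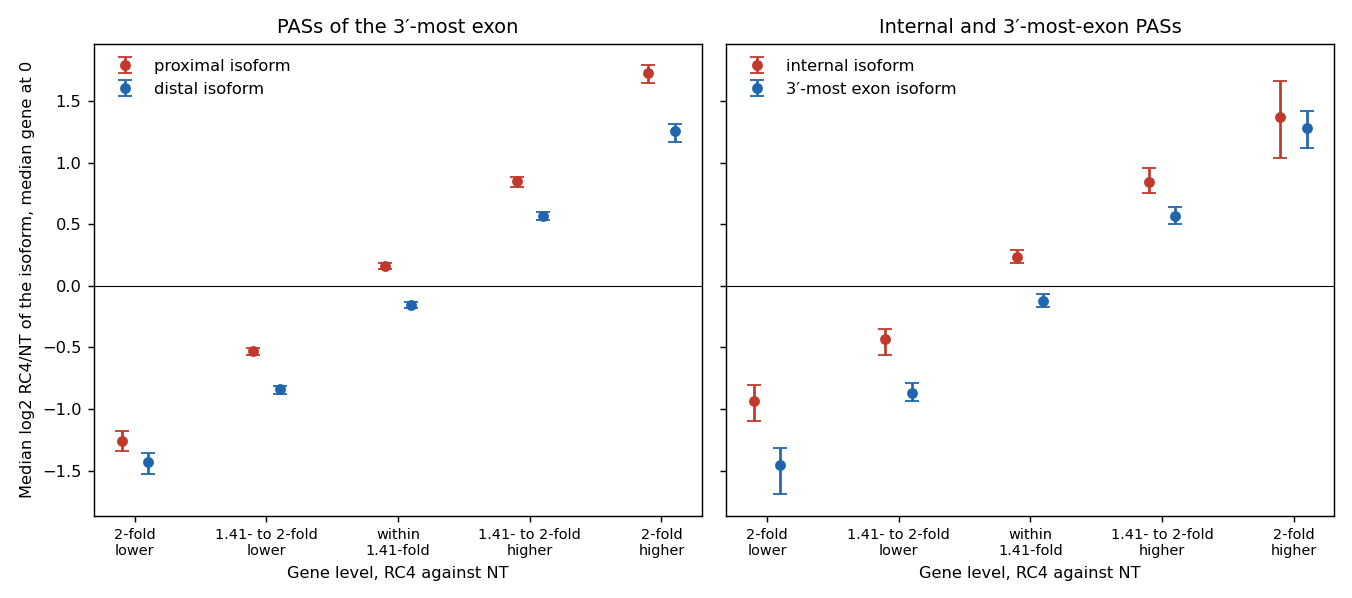
Median log2 of RC4 over NT (median gene at 0) for the proximal and distal isoforms of the 3′-most exon (left) and for internal and 3′-most-exon isoforms (right), by class of gene level change, with 95% order-statistic intervals. Reads of an isoform are reads of the gene times the fraction of the PAS. In genes at least 2-fold higher the proximal isoform is at 1.73 and the distal at 1.25, and in genes at least 2-fold lower they are at −1.26 and −1.43.

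Genes whose total level hardly differed can hide isoforms that did. Among 3332 genes within 1.41-fold with more than 1 PAS, 2938 had a PAS with at least 200 reads in a library, and in 270 of them (9.19%) at least 1 such PAS differed 2-fold. The changed PASs were 141 higher and 152 lower. Of 461 intronic PASs 35 (7.59%) were higher and 12 (2.60%) lower, whereas of 4723 PASs of the 3′-most exon 101 (2.14%) were higher and 138 (2.92%) lower. The PAS with most reads was another one in RC4 than in NT in 621 of 5343 genes with more than 1 PAS (11.6%), with 11.9% among both higher and lower genes.

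Chka, choline kinase alpha, shows a higher gene with a shift to the proximal PAS. It had 954 reads in NT and 4775 in RC4 (log2 2.60) and a REDu of −2.26 (counting error 0.16). Of its reads, 9.85% were at the proximal PAS in NT and 34.3% in RC4, with 8.95% in AS and 39.4% in RC8. In reads, the proximal isoform went from 94.0 to 1638 and the distal one from 861 to 3137, so both were higher. Morc2a, a chromatin ATPase, had 507 and 998 reads and a REDu of −3.12, with 12.4% and 55.2% at the proximal PAS. There the distal isoform had 444 and 447 reads, and the higher level of the gene was at the proximal PAS (62.9 and 551 reads). Fyn, a tyrosine kinase (799 and 2447 reads), had a REDu of 1.14 at PASs 105 nt apart.

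Hnrnpf and Hmgb2 show lower genes in which the distal isoform differed more than the proximal one. Hnrnpf, an RNA-binding protein gene, had 2941 reads in NT and 845 in RC4 and a REDu of −2.00 (counting error 0.12). The share of its proximal PAS was 21.3% in NT and 51.9% in RC4 (AS 38.1%, RC8 51.1%), while its distal isoform went from 2315 to 406 reads. Hmgb2, a chromatin protein of dividing cells, had 2051 and 581 reads and a REDu of −2.42, with 17.1% and 52.4% at the proximal PAS. Its distal isoform had 1700 and 277 reads and the proximal one 351 and 304. The highest REDu of lower genes, 3.01 in Zcchc8 and 3.0 in Morc3, came from PASs 223 and 185 nt apart, closer than the 300 nt used above.

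Kif14 and Nuf2 are lower mitotic genes with a shift to an intronic PAS. Kif14, a kinesin of cytokinesis, had 759 reads in NT and 261 in RC4 and a REDi of −2.24 (counting error 0.23). The share of its internal PAS was 29.5% in NT and 68.3% in RC4 (AS 49.0%, RC8 23.7%). Nuf2, a kinetochore protein gene, had 1005 and 395 reads and a REDi of −2.01, with 35.3%, 37.1%, 68.8% and 34.4% at the internal PAS. The full-length isoforms had 466 and 78.6 reads in Kif14 and 650 and 123 in Nuf2, and the internal isoforms 224 and 178, and 355 and 272. Of the mitosis list 3 genes had a REDi, and all 3 were below 0, beside 64.7% of all genes with a REDi. Spc25, a lower kinetochore gene outside that list (865 and 314 reads), went the other way. Its REDi was 0.66 (counting error 0.40), with 9.67% and 9.03% at the internal PAS. Among higher genes, Dnajc12, an HSP40 cochaperone of aromatic amino acid hydroxylases (204 and 345 reads), had a REDi of −3.62 with 52.0% and 93.0% at an intronic PAS, and Homer1, a scaffold protein gene (236 and 397 reads), had −2.95 with 12.6% and 30.7%. Prickle2 (288 and 479 reads) had the highest REDi, 3.85.

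The sequences before these PASs were searched for the poly(A) signals AATAAA and ATTAAA only. Variant signals were not searched, so a PAS with neither may still have a signal. Shown are 30 nt of NCBIM37 (mm9) on the strand of the gene, with AATAAA or ATTAAA in capitals where 1 of them lies between 50 and 5 nt before the PAS. Among the genes above whose windows are not shown, Morc2a, Fyn, Hnrnpf, Zcchc8, Morc3, Nuf2, Dnajc12 and Spc25 have neither at the proximal or internal PAS. Prickle2 has ATTAAA at its internal PAS. Chka has ATTAAA at the proximal and AATAAA at the distal PAS, Kif14 and Homer1 have AATAAA at both, and Hmgb2 has neither at the proximal PAS, where the window is rich in purines. Whether that PAS of Hmgb2 lies in the 3′UTR or in the coding part of the last exon was not examined.
Chka proximal (chr19:3893540-3893569, plus strand): actacagactatATTAAAgtggagtaacat
Chka distal (chr19:3894336-3894365, plus strand): attatacagataAATAAAcaacttgaaacc
Kif14 internal (chr1:138421344-138421373, plus strand): attacttgatgtAATAAAgcttattttcat
Kif14 3′-most exon (chr1:138426123-138426152, plus strand): ggaagtgcctttAATAAAtctcatgagctc
Homer1 internal (chr13:94127710-94127739, plus strand): ttccttgactgaAATAAAgatttccatgtg
Homer1 3′-most exon (chr13:94173927-94173956, plus strand): gagaaatcaggtAATAAAatttatttgatg
Hmgb2 proximal (chr8:59992877-59992906, plus strand): gaggaagaggaggaagatgacgaggaagaa
Hmgb2 distal (chr8:59993255-59993284, plus strand): ttttaaatttgtAATAAAataatgtatatt

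Near-identical 3′ ends can pass reads between genes. Nif3l1 (897 and 4171 reads, log2 2.5, REDu 1.76) has a distal PAS at which the printed 30 nt equal those of Sqstm1, itself at 3.21, and over 195 nt both are 94.9% identical. How the reads were divided between the pair was not tested.
Sqstm1 (chr11:50013663-50013692, minus strand): taagtaacctgtAATAAAatggcatatgca
Nif3l1 distal (chr1:58522465-58522494, plus strand): taagtaacctgtAATAAAatggcatatgca

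Of the higher genes, 143 had a 200-nt stretch before the main PAS that resembled another gene, as did 96 of the lower genes. Resemblance meant at least 90% identity over at least 100 nt to another gene's stretch or annotated coding transcript. Few genes outside the calls were searched, so the share over all genes is not known and these counts have no background. Among genes described above, Hsp90ab1 resembled Ryr3 and Ubb resembled Gm1821 in this way. With these genes and those with a PAS within 500 nt of another gene's left out, 495 genes were higher and 540 lower. This was a choice made after seeing the data, and leaving out called genes could only lower these counts.

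The shifts between PASs are given for 4 of the 34 lists with at least 3 members. Their differences were not tested. Stress granule proteins had a median REDu of −1.09, below 0 in 9 of 9 genes with a score, and ATF4 targets one of −0.55, below 0 in 12 of 14. NRF2 targets had 0.09, with 3 of 10 below 0, and ribosomal protein genes −0.40, with 20 of 26. Low medians were not particular to these lists. Tubulins had −0.87 (4 of 4 below 0), immediate early genes −0.72 (6 of 8) and proteasome subunits −0.68 (12 of 17). ER chaperones had 0.30 (5 of 10). The median over all genes was −0.37, with 68.4% below 0.

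Gene structure was compared between classes through GENCODE vM1, which has 1 entry for 8923 of the genes (88.5%). The annotated 3′UTR had a median of 1420 nt in higher genes (1277 to 1588), 1177 nt in lower genes (1074 to 1306) and 1260 nt in all. The AU-rich letters TATTTAT, a core that decay factors bind, were present in the 3′UTR of 37.6% of higher genes (33.6% to 41.7%), 29.4% of lower genes (25.7% to 33.3%) and 29.8% of all. A longer 3′UTR has more room for a match, and these shares were not adjusted for length. Higher genes had a median of 8 exons and lower genes 11, compared with 9 in all. From lower to higher, the classes in between had 11, 9 and 10. Genomic span was 25.3 kb, 22.7 kb and 23.2 kb, and over 5 classes of span of equal size the median level change ran from −0.06 to 0.09. AATAAA was present before the main PAS in 52.3% of higher and 54.7% of lower genes, and in 51.4% of all. A promoter sequence was available for 74.1% of the genes, under the 80% needed, so the comparison of promoter motifs between level classes is void.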

How the data were processed

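The authors trimmed reads with bbmap, mapped them to mm9 with STAR (2.5.2a, per the labels' processing notes) and applied MAAPER, with PASs taken from PolyA_DB v3, to genes with at least 50 reads and PASs with at least 5% of them. The deposited tables hold whole-number counts of reads per gene, not normalized, in 2 columns per library, and, for each PAS and library, its fraction of the reads of the gene as estimated by the authors with MAAPER. They also hold the authors' P values, RED and RLD scores, which were not used. Libraries of QuantSeq REV, from the same conditions, were not analysed here.

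The 2 count columns agreed within sampling noise (chi-square per degree of freedom 0.979 for NT and 0.983 for RC4, with 50.0% of reads in the first column of each) and were added as 1 library. Depth was 22.5 M reads for NT and 22.9 M for RC4. Log2 ratios were centred on the median gene, and a gene was called at 2-fold. REDu and REDi were calculated from these fractions, and isoform reads as gene reads times fraction. With 1 library per condition, no count model or other test across replicates was run. Ratios have exact conditional (Clopper-Pearson) intervals, shares Wilson intervals and medians order-statistic intervals, all at 95%. The calculations were tested on simulated data. Windows of 200 nt before the main PAS were searched with blastn for called genes and for those with the largest changes in share of reads. They were compared with the same windows of all genes and with coding transcripts of GENCODE vM1.

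Genes were named by rule, namely the 15 highest ratios among genes with at least 200 reads in RC4 and the 15 lowest among genes with at least 200 in NT, the 8 largest gains and losses in share of reads, members of the gene lists, the 4 lowest and 4 highest REDu and REDi among higher and lower genes with at least 200 reads in both libraries and both PASs at 5% or more, and the 8 genes with most NT reads that only the other 2 tables list. Some genes that the rule names are not reported here. The members and lists were chosen with earlier results of these data known. Alternatives covered the scaling (RPM, edgeR 4.0.16 TMM factors under R 4.3.3), read minimums, either count column alone, the call and the PASs used. Python 3.11.15 with numpy 2.4.6, pandas 2.3.3, scipy 1.17.1, statsmodels 0.14.6 and matplotlib 3.10.9 was used. Promoters came from RefSeq (GRCm38.p6), matched by symbol or, for 146 genes, synonym, and gene models from GENCODE vM1.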

Additional observations from a re-analysis of the deposited data

How the results depend on the processing

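No paired analysis was possible because each condition has 1 library. The scaling moved the counts of calls. In RPM, 372 genes were higher and 1347 lower in place of 643 and 643, and the median log2 changed sign for extracellular matrix genes (−0.26), snoRNA hosts and long noncoding RNAs (−0.27), polyamine genes (−0.25), oxidative phosphorylation (−0.13) and Zfp genes (−0.29), all of which lay within 0.2 of 0 before. With edgeR's TMM factors the median gene was at −0.01. Lower genes numbered 344 where both libraries had at least 200 reads and 370 when the counting interval had to lie wholly past 2-fold, and with at least 200 reads the median of YAP and TGF-β genes was 0.053. With PASs at least 300 nt apart the median REDu was −0.61 in lower and −0.74 in higher genes. Over the genes called higher in RPM, the median REDi was −0.49. Among counts of calls, RED medians and the count of shifted lists, 33 values moved by less than their limits. Among list medians and single genes, 53 values moved by more, 6 changed sign and 305 did neither. In RPM, for instance, the median of cleavage and polyadenylation factors went from −0.09 to −0.39 and that of stress granule proteins from −0.17 to −0.48. With columns at 0 set to the other column, a choice made after seeing the data, 618 genes were higher and 601 lower. Over 296 settings for 30 genes, the largest shift, 1.11 on the log2 scale, came from the use of 1 count column (March9). Of these settings 0 changed a sign, which says nothing about stability. The 30 genes were picked for their extreme ratios, and the one nearest to 0, Dio2, was at −2.47. Depth limits genes near 50 reads, and no setting replaces a second culture.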
